A study of Mus musculus with 12 samples.

Results

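The genes described here encode RNA polymerase I, its initiation factors and the proteins that turn its transcript into ribosomal subunits. The members are 53 named genes of ribosome biogenesis, set by name with earlier results of these data known, of 45321 mouse genes with a transcript in the deposited tables. All 53 were found, and all 53 passed the low-count filter, which kept 14398 genes. They were sorted by role into 7 genes of RNA polymerase I and its factors, 9 small nucleolar ribonucleoprotein (snoRNP) proteins, 4 nucleolar RNA-binding and regulatory proteins, 17 genes of small subunit assembly and 16 of large subunit assembly. RNA came from CD4+ T cells that had been purified from C57BL/6 mouse spleen by taking out the other cells, so the CD4+ cells themselves carried no antibody. The cells of the CsA_PI group received 1 µM cyclosporin A (CsA) for 1 h and then 10 nM phorbol 12-myristate 13-acetate (PMA) with 1 µM ionomycin for 2 h. The ethanol_PI group had the same stimulation after the ethanol vehicle, the CsA_US group had CsA with no stimulation, and the ethanol_US group had vehicle with no stimulation. Each group had 3 libraries. The labels do not say whether these came from separate mice, so p-values measure only the spread between these libraries.

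RNA polymerase I works in the nucleolus, where it copies the ribosomal DNA into a long precursor RNA. snoRNPs guide chemical modification and cleavage of that precursor, and a large set of assembly factors folds and trims it into the small and large ribosomal subunits. T cells that leave quiescence enlarge their nucleoli and make more ribosomes before they grow and divide. PMA stands in for diacylglycerol and ionomycin lets calcium in, so the pair act below the T cell receptor. CsA, bound to a cyclophilin, inhibits calcineurin, the calcium-dependent phosphatase that NFAT transcription factors depend on for nuclear entry.

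Library totals ran between 10523816 and 18468044 estimated counts. A level of 3 counts, taken as the floor for a count of 0, equalled 0.162 to 0.285 CPM (counts scaled to the library size). The library labelled CsA_PI 2 stood apart from CsA_PI 1 and 3. The cytokine gene Il2 had 25.4, 2.59 and 23.3 CPM in CsA_PI 1, 2 and 3, against 2078.1, 1817.2 and 1759.0 CPM in the ethanol_PI libraries. It had 0.33, 0.74 and 0.45 CPM in CsA_US and 2.26, 2.42 and 1.16 CPM in ethanol_US. CsA_PI 2 was thus close to the highest unstimulated library, ethanol_US 2. Whether the label of CsA_PI 2 is right was not tested. CsA_PI 2 lay below both CsA_PI 1 and 3 for 49 of the 53 members, where 42.6% of all genes tested did so, and it lay within the range of the 6 unstimulated libraries for 45 of them, where 71.6% of all genes did so. Counts of members and group medians that use CsA_PI are therefore given with and without it, and its values are shown apart. The 10 T cell markers were detected in every group. The 8 B cell markers summed to between 697.7 and 1059.6 CPM in the libraries numbered 2 of all 4 groups, and to at most 167.2 CPM in the others. The 10 myeloid and dendritic cell markers summed to between 226.2 and 254.0 CPM in the libraries numbered 2 and to at most 47.8 CPM in the others. In CsA_PI 2 these B cell and myeloid sums were 1059.6 and 251.7 CPM, against 1034.1 and 254.0 CPM in ethanol_US 2. In CsA_US 2 they were 987.6 and 229.1 CPM. With the libraries numbered 1 and 3 alone, 53 members were higher with stimulation in vehicle, where 21.2% of all genes were, and 52 were lower with CsA in stimulated cells, where 13.6% were.

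Every member rose with stimulation in vehicle-treated cells, and every member was lower with CsA in stimulated cells. Between ethanol_PI and ethanol_US, 53 of 53 members were higher in edgeR's quasi-likelihood test at an adjusted p under 0.05, where 20.1% of all genes tested were higher and 19.7% lower. Without CsA_PI 2 the count was the same, where 20.8% of all genes were higher. Their median log2 fold change was 2.5, from 0.67 for Wdr12 to 4.70 for Rrp1b, against a median of -0.02 over all genes. A rise of 4-fold or more was called for 39 members, against 5.95% of all genes. In stimulated cells, CsA_PI lay below ethanol_PI for 53 of 53 members, where 12.7% of all genes tested were lower and 10.3% higher, with a median log2 fold change of -1.81 and a range of -2.98 for Polr1b to -0.76 for Bms1. Without CsA_PI 2, 52 members were lower with CsA, where 12.1% of all genes were lower and 10.4% higher, and the median was -1.59. In bulk libraries, fewer cells of a type and less RNA per cell cannot be told apart.

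The members' TPM (scaled for transcript length as well as library size) summed to 5023.6, 4205.2 and 5911.8 in CsA_PI 1, 2 and 3 and to 15643.0, 15852.5 and 15904.1 in the ethanol_PI libraries. In unstimulated cells the sums were 3918.2, 3527.3 and 3763.7 TPM in CsA_US and 3665.4, 4197.8 and 4160.3 TPM in ethanol_US. The 3 ethanol_PI libraries were alike and above every other library, and CsA_PI 1 and 3 lay between them and the unstimulated libraries. CsA_PI 2 was just above the highest unstimulated library, ethanol_US 2 (4205.2 against 4197.8 TPM). For all 53 members the 3 ethanol_PI libraries lay above the 3 ethanol_US libraries, which 28% of all genes did, and above the 3 CsA_PI libraries, which 20.5% did.

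**Figure D1:**
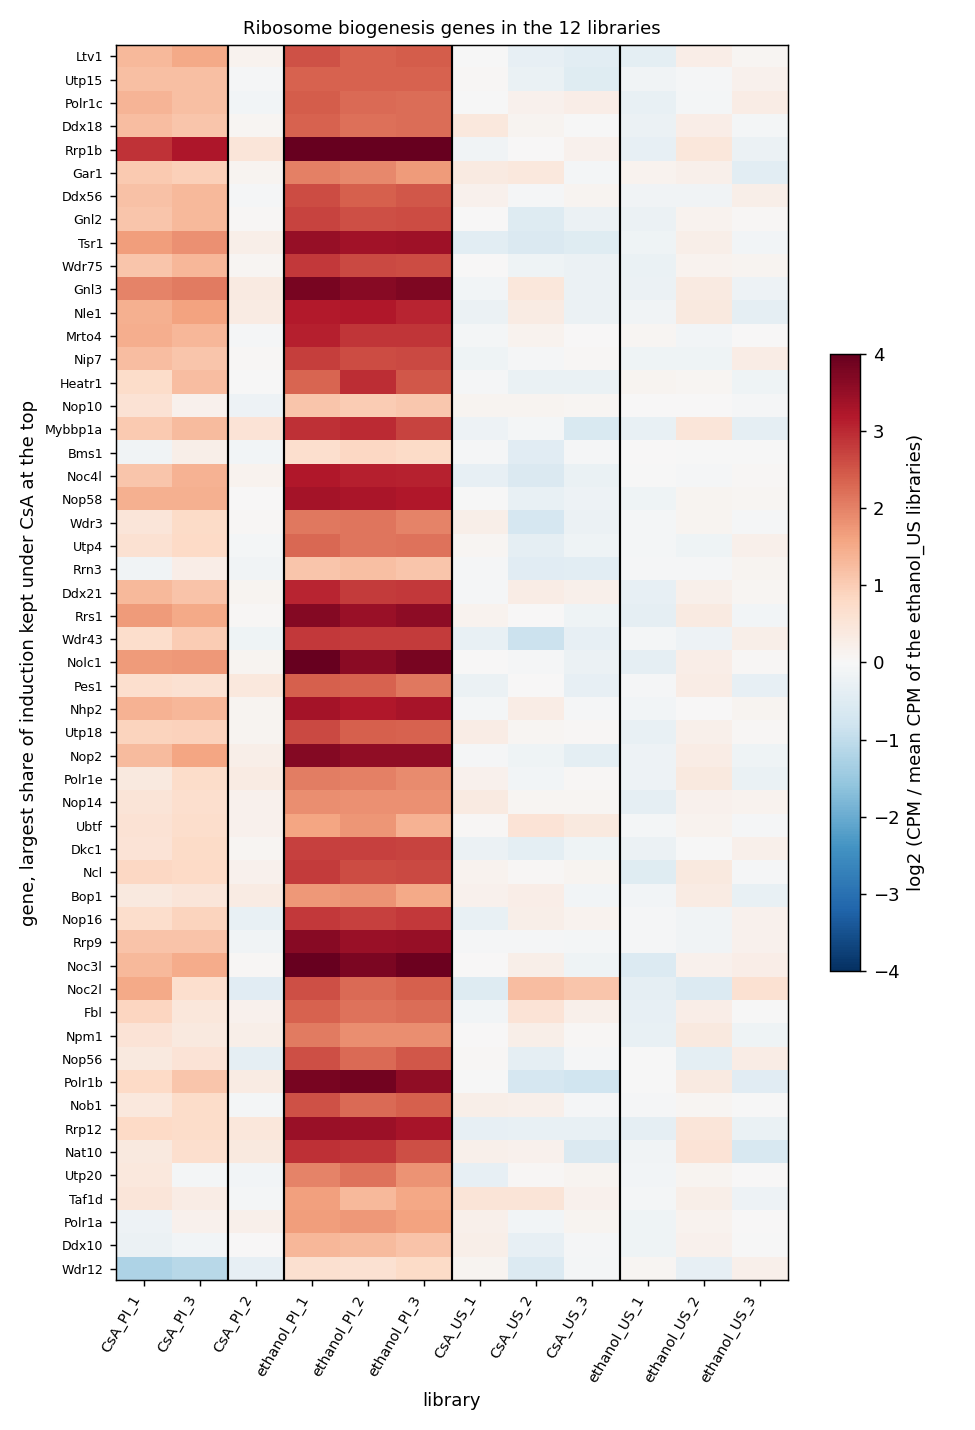
Level of each of the 53 genes in each of the 12 libraries, as the log2 ratio of its CPM to its mean CPM in the 3 ethanol_US libraries (red higher, blue lower, the scale ends at 4 on either side), with genes ordered by the share of induction kept under CsA and the CsA_PI 2 library drawn apart. The ethanol_PI columns are red for every gene, CsA_PI 1 and 3 are paler for every gene, and CsA_PI 2 resembles the unstimulated columns; Wdr12, in the bottom row, is blue in CsA_PI 1 and 3.

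RefSeq promoter windows on GRCm38.p6, from 250 bases before to 50 after a start, were available for 47 members, with 56 windows. The windows were searched on both strands for CACGTG (an E-box, bound by Myc with Max), TGANTCA (an AP-1 site), GGAAA (the NFAT core) and CCGGAAG (an ETS site, which can share letters with a GGAAA on the other strand). An E-box stood in 11 windows of 11 members, or 19.6%, against 7.15% of all windows, 9.95% of the windows of genes that passed the filter and 13.9% of those of other genes that were called and rose 2-fold or more in vehicle. The ETS site stood in 19 windows of 18 members, or 33.9%, against 8.86% of all windows and 17.6% of those of genes that passed the filter. GGAAA stood in 67.9% of member windows and 61.3% of all windows, and TGANTCA in 0 member windows and 7.81% of all windows. Other genes of the pathway, a list described below, had 86 windows. Of these, 16.3% held an E-box, 43% the ETS site, 76.7% GGAAA and 1.16% TGANTCA. The ETS site and GGAAA were thus more frequent there than in the members, and the E-box nearly as frequent. These are descriptions of the letters in these windows only.

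The E-boxes that lie before the start are given with 10 bases on either side, since they place the site in Rrn3, the RNA polymerase I factor with E-boxes, and in 2 assembly genes; the capitals mark the E-box. Rrn3 has 2 of them, at chr16:13780474-13780499 and chr16:13780641-13780666 (plus strand), Nop2 has 1 at chr6:125131813-125131838 (plus strand) and Utp18 has 1 at chr11:93885771-93885796 (minus strand).
Rrn3, far site: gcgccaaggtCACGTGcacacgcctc
Rrn3, near site: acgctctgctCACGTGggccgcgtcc
Nop2: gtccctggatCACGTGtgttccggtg
Utp18: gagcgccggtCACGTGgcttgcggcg

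The 11 members with an E-box kept a median of 20% of their induction under CsA (the share defined with the order of the genes, range 5.8% to 40.4%), and the 36 members with a window and no E-box kept 17.8% (-76.3% to 34.8%). Myc itself, named here outside the rule for named genes, had 673.2, 86.8 and 748.6 CPM in CsA_PI 1, 2 and 3, and 3878.4, 3706.7 and 3680.1 CPM in ethanol_PI. Unstimulated cells held 34.8, 49.1 and 32.9 CPM of it in CsA_US and 66.5, 103.2 and 55.7 CPM in ethanol_US. Its part in the members' levels was not tested.

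The 100 bases before the start are given for the genes at the ends of the order under CsA and for Nolc1 and Ncl, with any CCGGAAG or GGAAA (on either strand) in capitals. They are Ltv1 (chr10:13193138-13193237, minus strand), Utp15 (chr13:98262993-98263092, minus), Ddx10 (chr9:53248113-53248212, minus), Wdr12 (chr1:60098501-60098600, minus, the window nearest the annotated end of 3 in the table), Nolc1 (chr19:46075747-46075846, plus) and Ncl (chr1:86359456-86359555, minus). The GENCODE start of Wdr12 lies 145 bases upstream of the RefSeq start used, so its whole stretch is inside the gene as annotated there. For Ltv1 and Utp15 the GENCODE start lies 31 and 49 bases upstream, so their stretches are partly inside.
Ltv1: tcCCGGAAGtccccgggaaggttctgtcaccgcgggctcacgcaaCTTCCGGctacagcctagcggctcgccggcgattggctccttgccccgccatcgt
Utp15: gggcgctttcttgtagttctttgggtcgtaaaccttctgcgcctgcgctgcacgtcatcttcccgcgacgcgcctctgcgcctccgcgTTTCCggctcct
Ddx10: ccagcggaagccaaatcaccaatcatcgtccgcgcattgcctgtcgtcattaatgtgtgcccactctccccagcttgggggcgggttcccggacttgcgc
Wdr12: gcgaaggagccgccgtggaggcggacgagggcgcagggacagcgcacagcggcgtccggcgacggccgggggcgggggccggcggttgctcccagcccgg
Nolc1: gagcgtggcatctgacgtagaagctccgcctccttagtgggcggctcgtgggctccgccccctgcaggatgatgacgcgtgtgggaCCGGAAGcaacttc
Ncl: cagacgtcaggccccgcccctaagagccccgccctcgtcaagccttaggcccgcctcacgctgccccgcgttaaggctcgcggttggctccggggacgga
Ltv1, with the highest share kept, carries the ETS letters on each strand, and Nolc1 carries them near its start. Utp15, next to Ltv1 in the order, has no ETS letters in its window, and Ddx10, near the other end, has them farther upstream than the stretch printed, at -187 from the start.

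All 7 genes of RNA polymerase I and its factors rose with stimulation in vehicle and were lower with CsA in stimulated cells, with and without CsA_PI 2. Their medians were 1.67 for the rise and -1.36 for CsA on the log2 scale (-1.07 for CsA without CsA_PI 2). Polr1a and Polr1b, which encode the 2 large subunits that form the active centre, both lost most of their rise, Polr1a back to the unstimulated level. Polr1c, a subunit shared with RNA polymerase III, kept more than the other 6.

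Polr1a (chr6:71909053-71984935, GRCm38) had 33.3, 44.6 and 43.0 CPM in CsA_PI 1, 2 and 3, against 123.0, 128.6 and 117.5 CPM in ethanol_PI. Its unstimulated levels were 44.7, 35.7 and 41.8 CPM in CsA_US and 34.0, 42.6 and 39.1 CPM in ethanol_US. Every CsA_PI library thus lay within or just below the unstimulated range, including CsA_PI 2, while ethanol_PI was higher throughout. The log2 rise in vehicle was 1.67 ± 0.17 (SE, adjusted p = 1.68e-05), and the change with stimulation under CsA was -0.02 ± 0.17 (adjusted p = 0.968), or -0.13 ± 0.18 without CsA_PI 2 (adjusted p = 0.643). A gene on the opposite strand, Gm26628, overlaps its exons. The labels do not state whether the libraries kept strand, and without it the reads of such a pair cannot be told apart; 20 members have such a partner, among them Nop56, Dkc1, Mybbp1a, Tsr1, Gnl3, Rrp1b and Wdr12.

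Polr1b (chr2:129100995-129126594) showed the largest fall with CsA of all members. It had 56.5, 40.3 and 69.3 CPM in CsA_PI 1, 2 and 3, against 454.9, 473.5 and 379.4 CPM in ethanol_PI. CsA_US held 31.9, 20.2 and 18.7 CPM and ethanol_US 32.3, 41.4 and 23.5 CPM, so CsA_PI 1 and 3 were above every unstimulated library but far closer to these than to ethanol_PI. The log2 change with CsA in stimulated cells was -2.98 ± 0.28 (adjusted p = 2.02e-05), and -2.76 ± 0.29 without CsA_PI 2 (adjusted p = 2.73e-05).

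Polr1c (chr17:46243920-46248054) had 151.5, 54.8 and 135.1 CPM in CsA_PI 1, 2 and 3, against 313.9, 285.8 and 278.0 CPM in ethanol_PI. In unstimulated cells it had 58.3, 66.8 and 71.0 CPM in CsA_US and 48.3, 56.2 and 72.7 CPM in ethanol_US. CsA_PI 1 and 3 were about midway on a log scale between the unstimulated and the ethanol_PI libraries, whereas CsA_PI 2 sat among the unstimulated ones. Under CsA the log2 rise was 0.80 ± 0.30 with all libraries (adjusted p = 0.118) and 1.11 ± 0.17 without CsA_PI 2 (adjusted p = 0.000435), so that library decided the call.

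Ubtf, whose product UBF binds and opens the ribosomal DNA, had 56.2, 42.7 and 60.5 CPM in CsA_PI 1, 2 and 3, against 112.0, 127.2 and 99.3 CPM in ethanol_PI. Its levels were 38.6, 54.6 and 48.7 CPM in CsA_US and 35.3, 41.3 and 36.0 CPM in ethanol_US, and the rise in vehicle was 1.59 ± 0.19 (adjusted p = 5.36e-05). Rrn3, the factor that makes RNA polymerase I competent to start and the gene with 2 E-boxes printed above, moved less. It had 81.2, 80.1 and 106.6 CPM in CsA_PI 1, 2 and 3, against 190.6, 205.8 and 191.7 CPM in ethanol_PI. CsA_US held 85.9, 65.4 and 66.4 CPM and ethanol_US 86.1, 85.2 and 95.6 CPM, a rise in vehicle of 1.14 ± 0.17 (adjusted p = 0.000213), the smallest of the 7. Taf1d, of the promoter selectivity factor, and Polr1e, a further subunit, rose by 1.5 and 1.98.

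All 9 snoRNP protein genes rose in vehicle, with a median log2 change of 2.73, and all 9 were lower with CsA in stimulated cells, with a median of -2.20 (-1.88 without CsA_PI 2). Nop56 had the highest mean TPM of all members in ethanol_PI, at a mean of 656.9 TPM in CsA_PI (710.5 without CsA_PI 2), 2548.5 in ethanol_PI, 511.3 in CsA_US and 634.1 in ethanol_US. Nop56, Nop58 and fibrillarin (Fbl) form the box C/D particles that methylate ribosomal RNA, and Dkc1, Gar1, Nhp2 and Nop10 the box H/ACA particles that make pseudouridine. Nolc1 encodes a nucleolar chaperone of both.

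Nolc1 (chr19:46075863-46085530) had 191.7, 63.5 and 196.1 CPM in CsA_PI 1, 2 and 3, against 923.4, 719.0 and 804.4 CPM in ethanol_PI. The unstimulated libraries held 59.3, 57 and 50 CPM in CsA_US and 45.4, 69.8 and 59.8 CPM in ethanol_US. CsA_PI 1 and 3 were nearly equal and well above the unstimulated range, and CsA_PI 2 was inside it. The rise in vehicle, 3.81 ± 0.37 (adjusted p = 1.4e-05), was the largest of the 9, and the rise under CsA without CsA_PI 2 was 1.78 ± 0.19 (adjusted p = 1.99e-05).

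Nop56 (chr2:130274430-130279313), in CPM, had 604.7, 360.5 and 671.7 in CsA_PI 1, 2 and 3, against 2740.8, 2225.5 and 2562.5 in ethanol_PI. It had 479.7, 358.3 and 447.2 CPM in CsA_US and 459.3, 350.8 and 570.5 CPM in ethanol_US, so that even CsA_PI 1 and 3 barely cleared the unstimulated libraries. Fbl, the methyltransferase, had 70.7, 43.7 and 53.5 CPM in CsA_PI 1, 2 and 3, against 197.5, 176.0 and 180.6 CPM in ethanol_PI. Its levels of 35.7, 57.1 and 44.4 CPM in CsA_US and 31.0, 46.5 and 38.5 CPM in ethanol_US overlapped those of CsA_PI. The change with stimulation under CsA was not called without CsA_PI 2 for Nop56 (0.54 ± 0.21, adjusted p = 0.0681) or for Fbl (0.43 ± 0.21, adjusted p = 0.161).

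The H/ACA genes differed in what they kept. Dkc1, the pseudouridine synthase, had 122.3, 87.8 and 141.3 CPM in CsA_PI 1, 2 and 3, against 555.6, 556.4 and 537.3 CPM in ethanol_PI, and 71.4, 63.6 and 74.1 CPM in CsA_US against 70.6, 82.6 and 96.2 CPM in ethanol_US. Gar1 was low throughout, with 15, 7.92 and 14 CPM in CsA_PI 1, 2 and 3, against 29.6, 27.9 and 23.8 CPM in ethanol_PI. In unstimulated cells Gar1 had 9.37, 9.80 and 6.97 CPM in CsA_US and 8.12, 8.32 and 5.47 CPM in ethanol_US. Gar1 had the highest share of induction kept among the 9 snoRNP genes, at 29.2%, where Dkc1 kept 13.3%. Nhp2 and Nop10 rose by 3.28 and 1.08 in vehicle, and Rrp9, of the U3 particle, by 3.54.

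All 4 nucleolar RNA-binding and regulatory genes rose in vehicle and were lower with CsA in stimulated cells. Ncl (nucleolin, chr1:86344719-86359400) had 892.2, 564.8 and 863.2 CPM in CsA_PI 1, 2 and 3, against 3487.0, 3047.2 and 3103.8 CPM in ethanol_PI. CsA_US held 544.3, 516.7 and 532.9 CPM and ethanol_US 359.8, 649.4 and 486.9 CPM. CsA_PI 1 and 3 were above all 6 unstimulated libraries and CsA_PI 2 among them; the log2 change with CsA in stimulated cells was -2.05 ± 0.24 (adjusted p = 9.57e-05), and -1.83 ± 0.23 without CsA_PI 2 (adjusted p = 8.84e-05). Npm1 (nucleophosmin), a histone and ribosomal protein chaperone, had 848.2, 684.7 and 758.8 CPM in CsA_PI 1, 2 and 3, against 2422.0, 2095.0 and 2083.7 CPM in ethanol_PI. Its unstimulated levels were already 587.9, 684.8 and 599.6 CPM in CsA_US and 470.1, 752.0 and 510.3 CPM in ethanol_US.

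The RNA helicase gene Ddx21 and Mybbp1a, which encodes a nucleolar regulator of polymerase I and of other transcription, rose by 2.89 ± 0.28 and 2.87 ± 0.27 in vehicle. Ddx21 had 290.7, 129.2 and 265.3 CPM in CsA_PI 1, 2 and 3, against 979.7, 822.4 and 855.0 CPM in ethanol_PI, and 115.1, 146.7 and 137.4 CPM in CsA_US and 95.2, 136.0 and 126.9 CPM in ethanol_US. Mybbp1a had 203.4, 145.8 and 236.6 CPM in CsA_PI 1, 2 and 3, against 756.6, 777.7 and 643.4 CPM in ethanol_PI, and 86.9, 94.2 and 65.4 CPM in CsA_US and 80.6, 140.0 and 77.1 CPM in ethanol_US. For Mybbp1a CsA_PI 2 too was above all 6 unstimulated libraries, but only just, at 145.8 CPM against 140.0 CPM in ethanol_US 2.

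**Figure D2:**
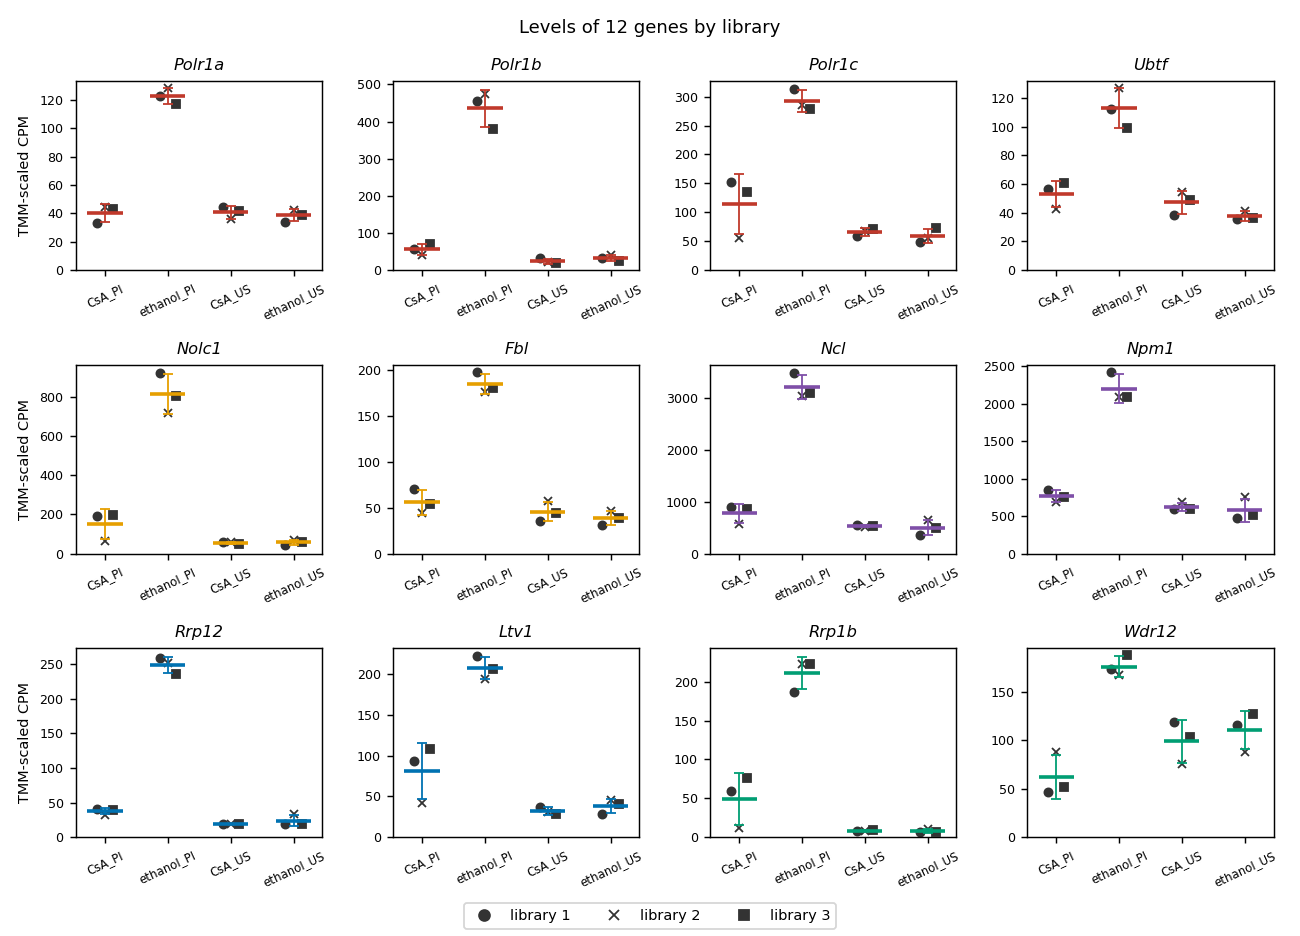
CPM (vertical axes, from 0) of 12 genes in each library of the 4 groups, with a symbol for each library number and the mean and standard deviation of the 3 libraries drawn over them. The ethanol_PI libraries are highest in every panel, CsA_PI 1 and 3 of Ltv1, Polr1c and Rrp1b lie clearly above the unstimulated libraries, those of Polr1a lie among or just below them, and those of Wdr12 lie below them.

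All 17 genes of small subunit assembly rose in vehicle, with a median of 2.44, and all 17 were lower with CsA in stimulated cells, with a median of -1.79 (-1.53 without CsA_PI 2). Ltv1, a late factor that leaves the small subunit precursor in the cytoplasm, kept the highest share of its rise of all members; its upstream sequence is printed above (gene at chr10:13178140-13193168). It had 93.1, 42.0 and 108.3 CPM in CsA_PI 1, 2 and 3, against 221.9, 194.4 and 205.7 CPM in ethanol_PI. CsA_US held 37.4, 30.6 and 28.7 CPM and ethanol_US 28.8, 45.5 and 40.0 CPM. CsA_PI 1 and 3 lay more than 2-fold above every unstimulated library, and CsA_PI 2 within the ethanol_US range. The rise under CsA was 1.33 ± 0.29 (adjusted p = 0.0396), and 1.61 ± 0.19 without CsA_PI 2 (adjusted p = 5.48e-05).

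Tsr1, another late factor of the small subunit, had the largest rise of the 17 in vehicle, 3.41 ± 0.33 (adjusted p = 1.36e-05). It had 118.2, 43.8 and 133.8 CPM in CsA_PI 1, 2 and 3, against 413.4, 384.6 and 392.2 CPM in ethanol_PI, and 27.6, 25.2 and 26.7 CPM in CsA_US against 33.5, 43.9 and 34.6 CPM in ethanol_US. Noc4l had the highest mean TPM of the 17 in ethanol_PI, at 144.3 TPM in CsA_PI (168.2 without CsA_PI 2), 539.9 in ethanol_PI, 65.9 in CsA_US and 85.2 in ethanol_US. CsA_PI 1 and 3 of both genes were above all unstimulated libraries.

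Ddx10 (chr9:53098635-53248053), an RNA helicase of the early small subunit precursor, kept nothing. It had 61.0, 72.9 and 67.2 CPM in CsA_PI 1, 2 and 3, against 182.7, 174.6 and 160.0 CPM in ethanol_PI, and 84.6, 57.3 and 70.5 CPM in CsA_US against 64.1, 80.5 and 71.9 CPM in ethanol_US. All 3 CsA_PI libraries were within the range of the unstimulated ones. The rise in vehicle was 1.26 ± 0.17 (adjusted p = 0.00013), and the change under CsA was -0.08 ± 0.17 (adjusted p = 0.818). Bms1, a GTPase of the same particle, had the smallest fall with CsA of all members with 12 libraries, at -0.76 (-0.68 without CsA_PI 2, when Nop10 had -0.64). It had 53.1, 55.4 and 69.2 CPM in CsA_PI 1, 2 and 3, against 93.3, 105.6 and 101.6 CPM in ethanol_PI. The other genes of the group, among them Wdr43, Wdr75, Utp15, Utp18 and Heatr1, whose products bind the nascent precursor, rose by 1.84 to 3.39 in vehicle and were lower with CsA by log2 changes of -2.72 (Rrp12) to -1.37 (Nop14), or -2.59 (Rrp12) to -1.12 (Utp15) without CsA_PI 2.

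All 16 genes of large subunit assembly rose in vehicle, with a median of 2.74. All 16 were lower with CsA in stimulated cells with 12 libraries, with a median of -1.85, and 15 without CsA_PI 2, with a median of -1.59, when Noc2l was no longer called. Rrp1b, a nucleolar factor of large subunit precursor processing, had the largest rise of all members. It had 59.9, 11.3 and 76.2 CPM in CsA_PI 1, 2 and 3, against 187.2, 222.8 and 223.4 CPM in ethanol_PI. Its unstimulated levels were 7.30, 8.26 and 9.15 CPM in CsA_US and 6.43, 11 and 6.87 CPM in ethanol_US, so the CsA_PI 1 and 3 libraries were several-fold above rest while CsA_PI 2 was just above the highest of these. Its log2 rise was 4.70 ± 0.58 in vehicle (adjusted p = 0.000111) and 2.58 ± 0.53 under CsA (adjusted p = 0.0395), or 3.02 ± 0.23 under CsA without CsA_PI 2 (adjusted p = 1.66e-06), the largest under CsA as well.

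Gnl3 (nucleostemin, a nucleolar GTPase) had the highest mean TPM of the 16 in ethanol_PI, at 92.0 TPM in CsA_PI (113.7 without CsA_PI 2), 334.6 in ethanol_PI, 36.6 in CsA_US and 37.5 in ethanol_US. Ddx18, an RNA helicase, had 152.5, 67.8 and 141.2 CPM in CsA_PI 1, 2 and 3, against 335.5, 295.8 and 306.0 CPM in ethanol_PI. It had 86.6, 69.7 and 64.3 CPM in CsA_US and 55.1, 77.4 and 61.9 CPM in ethanol_US, and kept the highest share of the 16.

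Wdr12 (chr1:60069785-60098645) was unlike the other 52. Its product joins those of Pes1 and Bop1 in the PeBoW complex of the large subunit. Wdr12 had 46.8, 88.2 and 51.4 CPM in CsA_PI 1, 2 and 3, against 173.4, 167.6 and 187.9 CPM in ethanol_PI. The unstimulated libraries held 118.7, 75.1 and 104.0 CPM in CsA_US and 116.0, 88.4 and 127.0 CPM in ethanol_US. CsA_PI 1 and 3 lay below all 6 unstimulated libraries, the only member for which both were below all CsA_US libraries, where 27% of all genes did so, and CsA_PI 2 lay among them.

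The log2 change of Wdr12 with CsA in stimulated cells was -1.5 ± 0.25 (adjusted p = 0.00109), and -1.81 ± 0.22 without CsA_PI 2 (adjusted p = 6.8e-05). Stimulation under CsA changed it by -0.68 ± 0.25 with all libraries (adjusted p = 0.115) and by -1.05 ± 0.21 without CsA_PI 2 (adjusted p = 0.0024). Its rise in vehicle was the least firm of the 53, at 0.67 ± 0.25 (adjusted p = 0.0468). That call was lost with the replicate number as a block (0.68, adjusted p = 0.0606), when any library other than CsA_PI 1 or CsA_PI 2 was left out (0.53 to 0.73) and with no scaling beyond library totals (0.06, adjusted p = 0.885); over the alternatives its adjusted p ran from 0.00221 to 0.885. Its partners Pes1 and Bop1 did not show the pattern: Pes1 had 120.5, 101.4 and 116.1 CPM in CsA_PI 1, 2 and 3, against 64.7, 75.6 and 60.7 CPM in CsA_US, and Bop1 had 100.2, 96.8 and 106.0 CPM, against 85.3, 91.7 and 70.8 CPM. An exon of Wdr12 is overlapped by a gene on the opposite strand.

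Noc2l, the relative of a yeast factor of large subunit transport, was the least even member, at 51.7, 13.3 and 28.8 CPM in CsA_PI 1, 2 and 3, against 108.3, 87.2 and 94.8 CPM in ethanol_PI. It had 12.7, 42.3 and 39.3 CPM in CsA_US and 14.2, 12.5 and 27.8 CPM in ethanol_US, so libraries of each unstimulated group differed by more than 2-fold. The log2 change with CsA in stimulated cells was -1.63 ± 0.53 (adjusted p = 0.0463). It was not called without CsA_PI 2 (-1.22 ± 0.52, adjusted p = 0.138) or with the replicate number as a block (-1.67 ± 0.55, adjusted p = 0.0547). The call was also lost when CsA_PI 3, ethanol_US 1 or 2, CsA_US 2 or 3 or any ethanol_PI library was left out, with values of -2.20 to -1.22 over the left-out libraries and adjusted p-values of 0.00565 to 0.233 over all alternatives.

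To order the members, the share of induction kept under CsA was taken as the mean CPM of CsA_PI 1 and 3 minus that of CsA_US, in percent of the mean CPM of ethanol_PI minus that of ethanol_US. It is a description with no test. The median over the 53 members was 18.3%, with quartiles of 11.6% and 23.5%. At the top stood Ltv1 with 40.4%, Utp15 with 34.8%, Polr1c with 33.4%, Ddx18 with 29.6% and Rrp1b with 29.5%. At the bottom stood Wdr12 with -76.3%, Ddx10 with -6.7%, Polr1a with -3.0% and Taf1d with -0.8%, below Utp20 with 5.8%. Of the 53 members, 49 kept between 0% and 50%, and the 4 lowest lay under 0%.

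**Figure D3:**
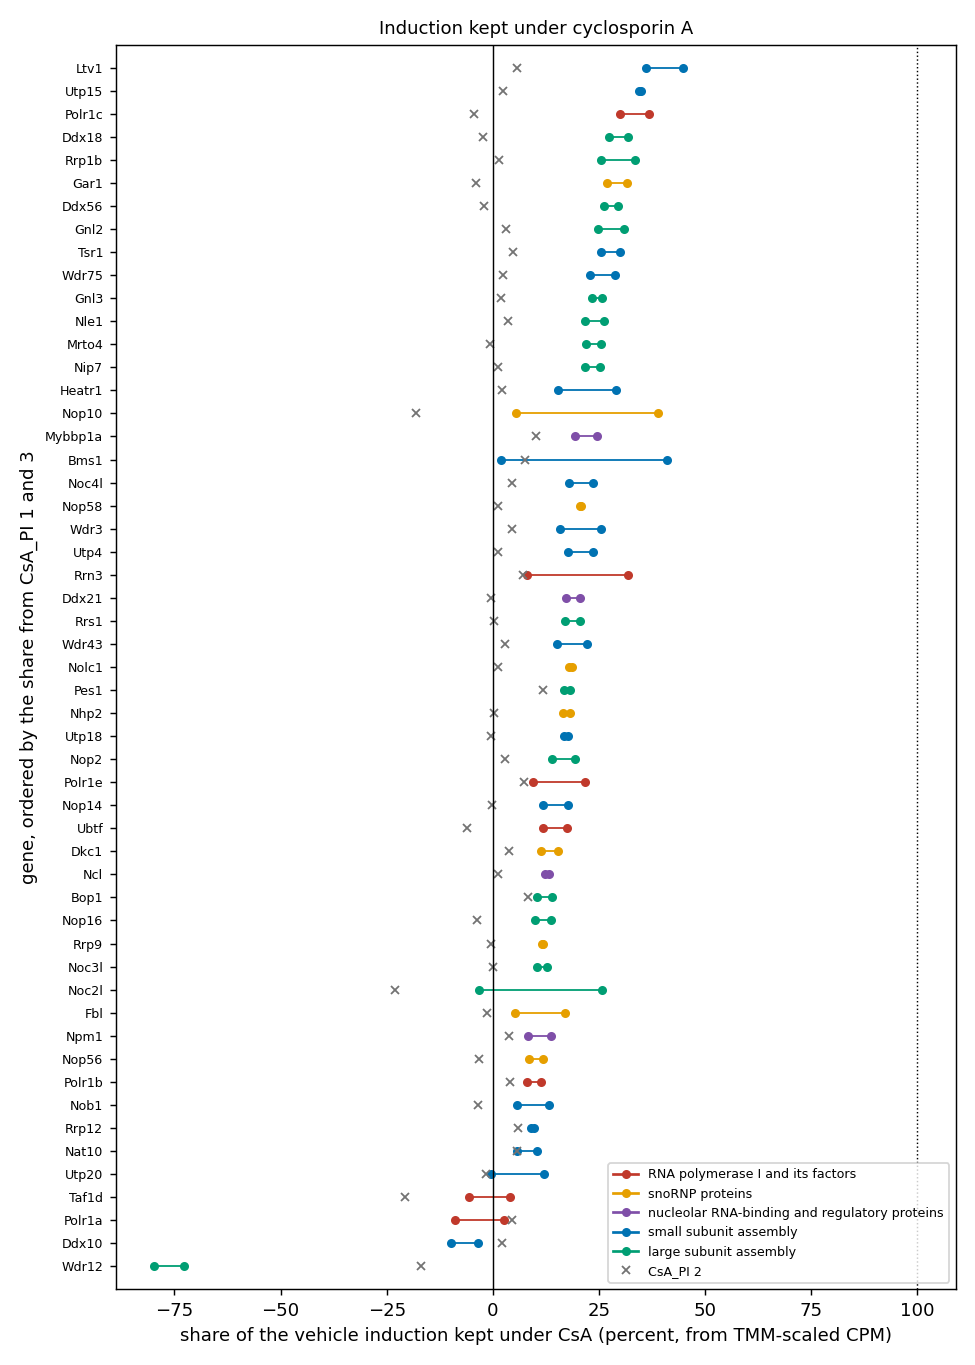
Share of the vehicle induction kept under CsA in percent (horizontal axis) for each of the 53 genes, as filled points from CsA_PI 1 and CsA_PI 3 joined by a line and a grey cross from CsA_PI 2, coloured by role; the solid line marks 0% and the dotted line 100%. The filled points of most genes lie between 0% and 50%, Wdr12 lies near -76.3%, and the crosses lie around 0%, with a median of 1.3%.

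By role the median share was 14.7% for RNA polymerase I and its factors, 17.4% for snoRNP proteins, 15.8% for the nucleolar RNA-binding and regulatory proteins, 20.5% for small subunit assembly and 21.2% for large subunit assembly. The ranges overlapped widely, from -3.0% to 33.4% among the polymerase I genes and from -76.3% to 29.6% among the large subunit genes, so these medians set no order between roles. CsA_PI 1 and CsA_PI 3 differed by a median of 5.2 percentage points per gene. The largest gap, 39.1 points, was that of Bms1, whose small rise makes the share uncertain, and the gaps of Nop10 (38.9% and 5.4%), Noc2l (25.8% and -3.3%) and Rrn3 (8.1% and 31.8%) were also wide. In CsA_PI 2 the median was 1.3%, with a range of -23.0% for Noc2l to 11.7% for Pes1.

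For comparison, 2014 genes outside the list were called in vehicle and rose there by 2-fold or more, and their median share was 28.2%, with quartiles of 10.7% and 54.6%. Of these, 36.7% kept at least as much as Ltv1, the highest member. The quartiles of the members lay inside those of the other genes and were closer together.

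**Figure D4:**
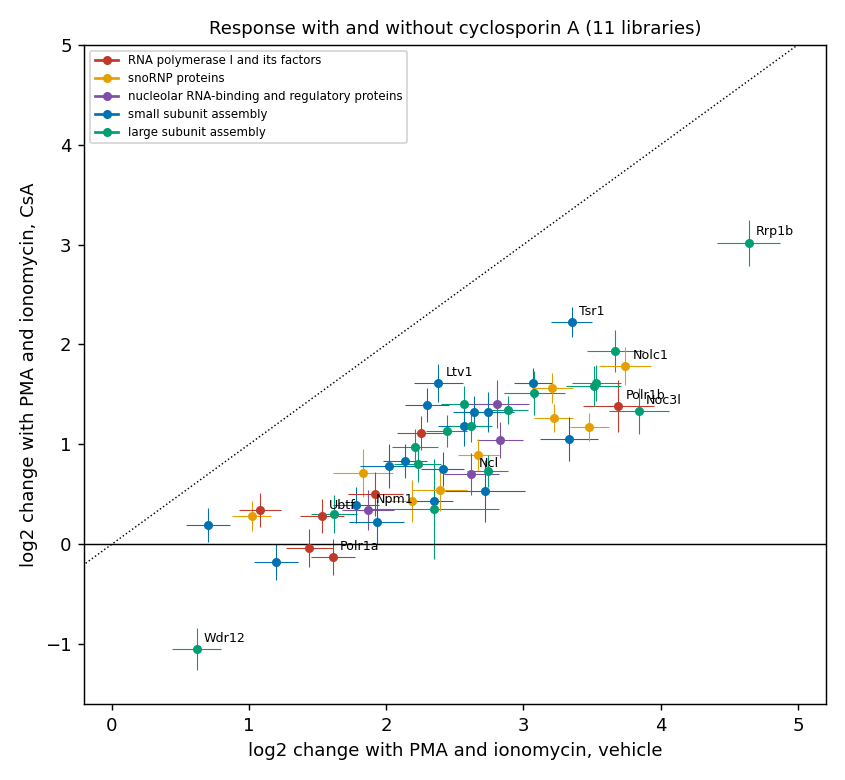
Log2 fold change with PMA and ionomycin in vehicle (horizontal axis) and under CsA (vertical axis) for each of the 53 genes from the 11 libraries without CsA_PI 2, with standard errors and role colours; the dotted line marks equal changes. Every gene lies below the dotted line, Rrp1b and Tsr1 are highest under CsA at 3.02 and 2.22, and Wdr12 is lowest at -1.05.

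Whether the members still responded under CsA depended on CsA_PI 2. With all 12 libraries, 18 members were higher and 0 lower in CsA_PI than in CsA_US, where 3.9% of all genes were higher and 1.38% lower, and the median was 0.75. Without CsA_PI 2, 36 members were higher, where 14.1% of all genes were, and Wdr12 was lower, where 14.6% were, and the median was 0.97. Of these 36, 13 were large subunit genes, 12 small subunit genes, 6 snoRNP genes, 3 nucleolar regulators (Ncl, Ddx21 and Mybbp1a) and 2 polymerase I genes (Polr1b and Polr1c). The count of 18 was 0 when ethanol_US 1, or any CsA_US or ethanol_PI library, or CsA_PI 1 or CsA_PI 3 was left out, and 8 without ethanol_US 3. Of all genes, 0 to 6 were higher in those fits and 209 of 14743 without ethanol_US 3. In the raw values, CsA_PI 1 and 3 were both above all 3 CsA_US libraries for 44 members, against 28.6% of all genes.

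The test of the difference itself, the interaction, asked whether the log2 change with stimulation was smaller under CsA than in vehicle. It was smaller for 48 members and larger for 0, where 6.19% of all genes were lower and 3.54% higher, with a median difference of -1.72 on the log2 scale. Utp15, Bms1, Ltv1, Rrp1b and Noc2l were not called. Without CsA_PI 2 the count was 50, where 7.31% of all genes were lower and 5.08% higher, Bms1, Ltv1 and Noc2l were not called, and the median was -1.52. Across the 53 members, the log2 change in vehicle and that under CsA without CsA_PI 2 ranked alike (Spearman's rho 0.84, a description across genes that share libraries), and Rrp1b, Nolc1 and Gnl3 were near the top of both. Noc3l, next to Rrp1b in vehicle at 3.84, was lower in the order under CsA at 1.33.

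In unstimulated cells no member passed the test of CsA against vehicle. In edgeR 0 members passed the test, and DESeq2 called 0. Of all genes, 0% were higher and 0.00695% lower by the adjusted p (0.00664% and 0.0398% without CsA_PI 2). An unadjusted p under 0.05 in edgeR was found for 0 members, against 465 of 14398 genes. Without CsA_PI 2 it was found for 4 of the 53 members, against 852 of 15057 genes. The median log2 change was -0.01, from -0.49 for Tsr1 to 0.79 for Noc2l. The CsA_US and ethanol_US libraries overlapped for 48 of the 53 members, and for 90.1% of all genes.

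A list of 94 other genes of the pathway held genes that rose and genes that fell. Of 93 that passed the filter, 73 were higher and 2 lower with stimulation in vehicle, where 20.1% of all genes were higher and 19.7% lower. With CsA in stimulated cells 66 were lower and 2 higher, where 12.7% of all genes were lower and 10.3% higher. Without CsA_PI 2 these were 63 and 5 of 94, where 12.1% and 10.4% of all genes were. Ppan, of the large subunit, rose by 4.16 ± 0.40 (adjusted p = 1.36e-05), Pwp2, of the small subunit processome, by 3.74 ± 0.38 (adjusted p = 1.97e-05), and Cd3eap, a further polymerase I subunit, by 3.02 ± 0.28 (adjusted p = 1.12e-05). The nuclease gene Dis3 of the exosome rose by 2.61 ± 0.21 (adjusted p = 4.93e-06), the most in its list. Of 18 exosome and RNase MRP genes tested, 8 were higher in vehicle and 10 were not called, with a median log2 change of 0.60. By contrast, 31 of 34 other large subunit genes, 29 of 33 other small subunit genes and 5 of 8 other polymerase I genes were higher. The 2 that fell in vehicle and were higher with CsA both serve polymerase I: Taf1b, of the promoter selectivity factor, changed by -1.01 ± 0.22 in vehicle (adjusted p = 0.00323) and by 0.88 ± 0.22 with CsA in stimulated cells (adjusted p = 0.0121; 0.85 without CsA_PI 2), and the termination factor gene Ttf1 by -0.81 ± 0.17 (adjusted p = 0.00207) and 0.99 ± 0.17 (adjusted p = 0.00104; 1.04 without CsA_PI 2). Ttf1 was named after its values were seen. Nvl, Rrp36 and Pop5, the lowest in their lists, had log2 changes of 0.37, -0.35 and -0.29 in vehicle and did not pass the test.

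Transcripts annotated in GENCODE as retaining an intron held more than 20% of the counts of 8 members in at least 1 group. Ncl had most, with 87.3%, 85.9% and 88.5% in CsA_PI 1, 2 and 3, and means of 88.0% in ethanol_PI, 85.1% in CsA_US and 83.5% in ethanol_US, nearly all in its transcript Ncl-202. For Nop56 the share was 36.7%, 25.6% and 39.7% in CsA_PI 1, 2 and 3, 35.3%, 35.9% and 36.8% in ethanol_PI, 20.7%, 21.5% and 18.2% in CsA_US and 25.7%, 21.4% and 21.1% in ethanol_US. All ethanol_PI libraries of Nop56 thus exceeded all ethanol_US libraries, and CsA_PI 1 and 3 were as high as ethanol_PI. Nat10, which acetylates ribosomal RNA, had 53.4%, 41.8% and 73.8% in CsA_PI 1, 2 and 3, and averaged 71.5% in ethanol_PI, 48.2% in CsA_US and 42.7% in ethanol_US. Of the 23 members with such a transcript, 8 had a higher share in all ethanol_PI than in all ethanol_US libraries and 0 a lower one. Of all 5077 genes tested that have such transcripts, 13% had a higher and 7.84% a lower share in the same sense. Estimated counts are split by kallisto between transcripts that share most of their sequence, so these shares are estimates. With protein-coding transcripts alone, 52 members were higher with stimulation in vehicle (20.4% of all genes), 52 were lower with CsA in stimulated cells (13% of all genes) and 44 had a lower interaction (6.04% of all genes).

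**Figure D5:**
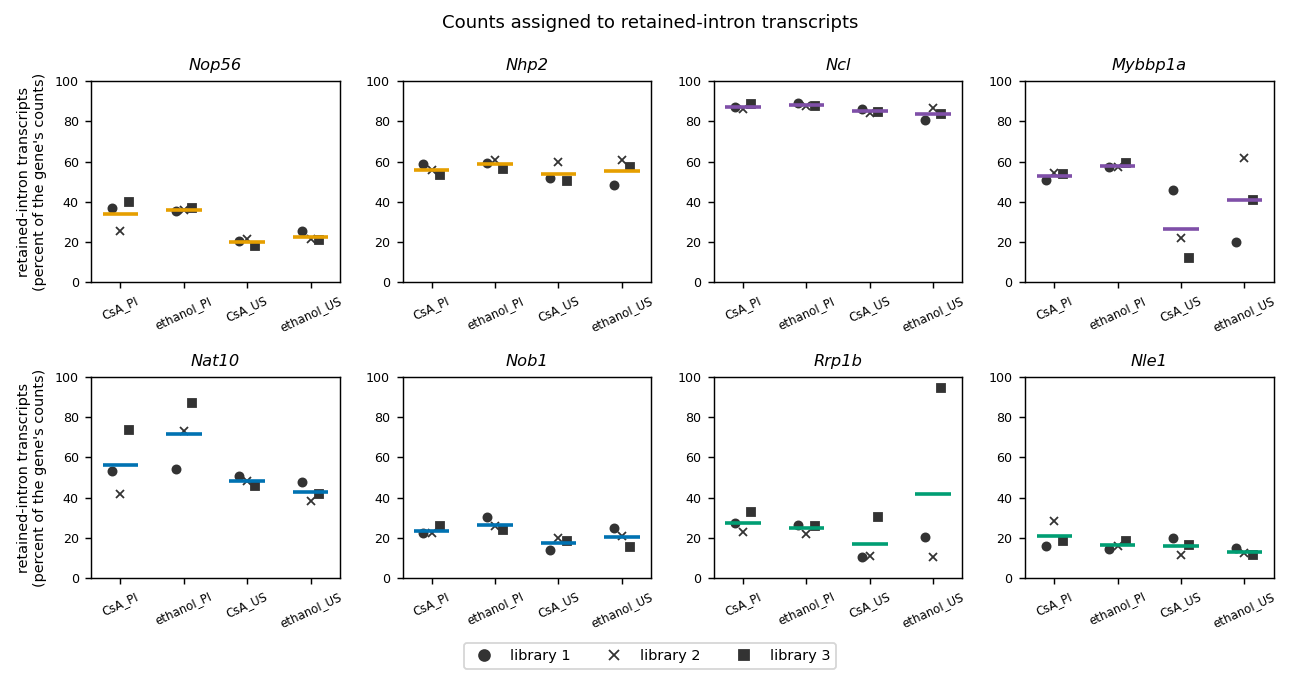
Percent of a gene's estimated counts in transcripts annotated as retaining an intron (vertical axes, 0 to 100) in each library of the 4 groups, for the 8 genes above 20% in any group, with bars at the group means. Ncl lies above 80% in all libraries, Nop56 is higher in the ethanol_PI than in the ethanol_US libraries, and Rrp1b in ethanol_US 3 (94.7%) lies far from the other unstimulated libraries.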

How the data were processed

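The deposited tables hold estimated counts and TPM per transcript, made by the authors with cutadapt and kallisto against mm10, per the submitters' processing notes; versions and annotation were not given in the sources used here. Libraries were made with a SMART-seq kit from total RNA, per the labels' protocols. Each gene's value is the sum of its transcripts' estimated counts or TPM, matched through GENCODE M21; 1403 of 109617 transcripts were not matched and held 0.494% to 0.628% of counts. Sums were rounded to whole numbers for the tests. Main tests used edgeR 4.0.16 in R 4.3.3 (quasi-likelihood, TMM scaling, minimum count 10, minimum total 15, all 12 libraries in 1 fit of 4 groups, Benjamini-Hochberg adjustment over all genes tested, threshold 0.05); the standard error is the log2 fold change over the square root of F. DESeq2 1.42.0, other scalings and left-out libraries were alternatives. CPM are TMM-scaled. The code was tested on simulated counts.

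Replicate numbers were checked as pairs by correlating the deviations of same-numbered libraries from their group means across genes. Pairs gave 0.143 to 0.319 for ethanol_PI with ethanol_US, 0.196 to 0.325 for CsA_US with ethanol_US and 0.107 to 0.208 for CsA_PI with ethanol_PI. All were over 0.1, so a fit with the number as a block was set beside calls it changed. Between CsA_PI and CsA_US 1 pair had 0.033, and there the numbers were not taken as pairs. The B cell markers were still high in the libraries numbered 2 of both groups, and the count with the block is given for that comparison too. Libraries were compared for duplicates within each group only, and none of these were duplicates. Libraries of different groups were not compared in this way. Whether CsA_PI 2 is a duplicate of ethanol_US 2 was thus not tested, although their B cell, myeloid and member sums were close. The floor of 3 counts covers counting error only, whereas the standard errors also hold the spread between libraries.

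Members and lists were chosen with earlier results of these data known. Named genes were 9 set by name, the extremes of each role for level, rise and share kept, members whose calls differed from the rest, and the largest and smallest changes of each other list. Bms1, Bop1, Heatr1, Myc, Nat10, Nhp2, Noc2l, Noc3l, Nop10, Nop14, Nop2, Nop58, Il2, Pes1, Polr1e, Rrp12, Rrp9, Taf1d, Ttf1, Utp15, Utp18, Utp20, Wdr43 and Wdr75 were named after their values were seen.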

Additional observations from a re-analysis of the deposited data

Results flagged for a closer look

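The change with stimulation was smaller under CsA than in vehicle, by the interaction test in edgeR, for 48 of the 53 members. Of all genes tested, 6.19% were lower and 3.54% higher in that test. Without CsA_PI 2 the count was 50, where 7.31% of all genes were lower and 5.08% higher, and the members' median was -1.52 in place of -1.72. The values that follow are from the fit of all 12 libraries, CsA_PI 2 included. Among the named genes the difference on the log2 scale (stimulation under CsA minus stimulation in vehicle) was -2.52 for Polr1b, -1.69 for Polr1a, -1.51 for Polr1c, -1.42 for Ubtf and -0.84 for Rrn3. It was -2.37 for Nolc1, -2.10 for Nop56, -1.98 for Dkc1, -1.96 for Fbl and -1.40 for Gar1. The nucleolar genes Ncl, Ddx21, Npm1 and Mybbp1a had -2.15, -2.11, -1.64 and -1.62. In subunit assembly Gnl3 had -2.15, Noc4l -1.77, Ddx18 -1.56, Tsr1 -1.52, Wdr12 -1.35 and Ddx10 -1.34.

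The calls of Gar1, Rrn3, Tsr1, Polr1c, Wdr12, Gnl3, Ddx18 and Mybbp1a were lost when at least 1 library was left out. Over the left-out libraries the differences ran from -1.56 to -1.12 for Gar1, -0.98 to -0.70 for Rrn3, -1.79 to -1.13 for Tsr1, -1.77 to -1.14 for Polr1c and -1.67 to -1.18 for Wdr12. They ran from -2.41 to -1.74 for Gnl3, -1.76 to -1.24 for Ddx18 and -1.95 to -1.41 for Mybbp1a. All of these stayed below 0.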

How the results depend on the processing

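The rise in vehicle was called for 51 to 53 members and the fall with CsA in stimulated cells for 50 to 53 under every alternative. Of all genes, 1580 to 3419 were higher in vehicle and 1193 to 2169 lower with CsA, of 11698 to 27164 tested. The rise lost calls for Wdr12 and Bms1, and the fall for Noc2l, Bms1, Gar1 and Rrp1b. Library totals in place of TMM moved the median of all genes to -0.63 in vehicle and to 0.40 with CsA in stimulated cells. The members' medians were then 1.89 (1.89 without CsA_PI 2) in vehicle, -1.52 (-1.41) with CsA, 0.48 for stimulation under CsA and -1.33 for the interaction without CsA_PI 2. The median with CsA was also -1.52 without CsA_PI 2 with the replicate block.

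Stimulation under CsA was the least stable result. Against 18 members higher, it gave 0 with library totals, 11 with the replicate block and 0 with the 2 groups alone. Of all genes, 561 were higher, against 5, 362 and 0 under these settings. Leaving out 1 library gave 0 to 36 higher and 0 to 1 lower, where 0 to 2125 of all genes were higher and 0 to 2196 lower. Without CsA_PI 2 it gave 37 higher and 1 lower with the replicate block, 29 and 2 with library totals and 37 and 1 with DESeq2. Of 15057 genes, 2397 were then higher and 2434 lower with the block, 1211 and 3695 with library totals and 2394 and 2403 with DESeq2. The libraries numbered 1 and 3 gave 35 and 1, where 2130 of 14260 genes were higher and 2307 lower. Among all genes, 760 were called, against 5, 441 and 0 under the same first 3 settings, 1999 with DESeq2, and 0 to 4321 leaving out 1 library. Without CsA_PI 2 these were 4831, 4906 and 4797, and the libraries numbered 1 and 3 gave 4437. The sign of uncalled values turned for Ddx10 (-0.24 to 0.07) and Polr1a (-0.13 to 0.10) over left-out libraries, as for Noc2l (-0.58 to 0.35), Nop10 (-0.10 to 0.28) and Utp20 (-0.05 to 0.22), with 0.07 and 0.06 for Ddx10 and Polr1a without CsA_US 1, for Polr1a without CsA_PI 1 (0.10) and with protein-coding transcripts (0.00), for Ubtf with library totals (-0.10, and -0.07 without CsA_PI 2) and for Npm1 with library totals without CsA_PI 2 (-0.01). The causes were not tested.

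For CsA in unstimulated cells 1 gene of all was called, 0 to 7 leaving out 1 library, 18 with DESeq2, 0 with libraries 1 and 3 and 0 with protein-coding transcripts; without CsA_PI 2 it was 15 with the block, 9 with library totals and 49 with DESeq2. For the interaction 1400 genes were called, 787 to 1865 leaving out 1 library, and 2274 (block) or 2471 (DESeq2) without CsA_PI 2. Members called lower ran from 35 (without ethanol_US 1) to 52. All genes called lower ran from 490 of 14688 (without ethanol_US 1) to 1506 of 15057 (DESeq2 without CsA_PI 2). The replicate block changed no other member call than Wdr12, Noc2l and Utp15 (interaction -1.31, adjusted p = 0.0486) outside stimulation under CsA.

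The median share kept was 14.5% with library totals, 36.8% as a ratio of log2 changes, 12.5% with all 3 CsA_PI libraries, and 16.7% to 18.8% leaving out 1 library. Wdr12 was lowest under every setting, and Ltv1 highest under all but 1, without CsA_PI 3, where Nop10 was. The value of Wdr12 itself was not stable. Against -76.3%, it was -1293.5% with library totals, -279.1% with gene TPM and -150.8% as a ratio of log2 changes. With a window of 100 bases before the start GGAAA stood in 21 member windows, or 37.5%, against 36.3% of all windows. The share was 33.9% for genes that passed the filter and 51.2% for the other genes of the pathway. Alternatives with library totals after leaving out CsA_PI 2, DESeq2 after leaving it out, libraries 1 and 3, and protein-coding transcripts were chosen after seeing the data.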
